A study of Homo sapiens with 6 samples.

Results

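Death receptors are cell surface receptors of the TNF receptor family whose cytoplasmic death domain, once a ligand such as TRAIL, FAS ligand or TNF is bound, gathers a complex that can activate caspases. In the TRAIL and FAS pathways the adaptor FADD recruits the initiator caspases CASP8 and CASP10, and CFLAR (c-FLIP), a relative of caspase-8 without protease activity, competes for the same complex and limits their activation. TNF receptor 1 first builds a complex around the kinase RIPK1 that signals to NF-kB, and it can pass to a caspase-8 complex or to necroptosis later on. Prostate cancer cell lines differ in how readily they die through these receptors, and loss of the short-lived c-FLIP protein is a known way to sensitize cells.

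This account covers 10 genes of death receptor signaling, taken by their symbols from 26255 genes with a deposited FPKM value, which is a fragment count scaled by transcript length and sequencing depth. They comprise 5 receptors (TNFRSF10A, TNFRSF10B, TNFRSF10D, TNFRSF1A and FAS), the adaptor FADD, the kinase RIPK1, the initiator caspases CASP8 and CASP10, and CFLAR. RNA was sequenced from 22RV1, a human castration-resistant prostate cancer (CRPC) line, after 24 h with vehicle (DMSO, 3 samples) or with 10 nM bruceantin (BCT, 3 samples), a plant quassinoid. All samples came from the same line in full medium with serum, which carries endogenous androgen, and no death receptor ligand was added according to the labels. Nothing in the labels says whether samples of a group were separate cultures, so p-values measure only the spread between these samples, which may be technical.

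The test kept 12729 genes whose average over the 6 samples reached 1 FPKM, among them 9 of the 10 members. CASP10 was below that level. Fold changes are differences of mean log2(FPKM + 0.1) between BCT and DMSO, tested with limma and Benjamini-Hochberg adjustment over all 12729 genes, and calls required a log2 fold change beyond 0.85 in either direction together with an FDR under 0.05. Depth is known only as a ratio, from the values of weakly expressed genes, and was 0.877 to 1 in DMSO samples and 1.05 to 1.13 in BCT samples relative to DMSO replicate 1. FPKM sums ran from 1169649 to 1572321 with DMSO and from 757534 to 799838 with BCT. The single gene MIR6087 took 43.5% to 55.3% of the sums with DMSO and 31.7% to 32.5% with BCT. The median FPKM of the tested genes lay between 11.7 and 12.1 in every sample. Prostate epithelial markers such as HOXB13 were at or above 1 FPKM in every sample. Of 10 markers of other cell types, COL1A1, CD68 and ALB reached that level in every sample. The albumin gene ALB stood at 405.0 ± 15.1 FPKM with DMSO and 61.7 ± 6.35 FPKM with BCT (SD, n = 3 each), and the sum of the other 9 markers was 3.90 to 5.11 FPKM with DMSO and 11.4 to 14.9 FPKM with BCT. The immune marker PTPRC and the endothelial marker PECAM1 were near 0, at means of 0.0227 FPKM or less in either group, and what part the markers that moved had in the results below was not tested.

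The mRNAs of FAS, CFLAR, TNFRSF10B, FADD and CASP8 rose past the FDR in BCT-treated cells, by 1.42 to 1.90 times, RIPK1 rose by less, TNFRSF10A passed the FDR in some settings only, TNFRSF1A did not pass the test, and the decoy receptor TNFRSF10D fell as deposited but not after 2 rescalings of the samples. In bulk RNA, a shift in which cells are present and a change of RNA per cell cannot be told apart. FAS and CFLAR were called higher, which is 2 of 9 tested members, and 13.9% of all tested genes were called higher. None of the members was called lower by limma, against 17.8% of all tested genes, and 1 member was lower at an unadjusted p under 0.05. On the FDR alone, 7 members rose and 1 fell, where 39.3% of all tested genes rose and 42.8% fell, so passing the FDR was common in this comparison. Every BCT sample lay above every DMSO sample in 7 of the 9 members, which held for 41.0% of all tested genes, and below in 1 member, against 44.3%. The members had a median log2 fold change of 0.51, and the tested genes as a whole one of -0.038.

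**Figure D1:**
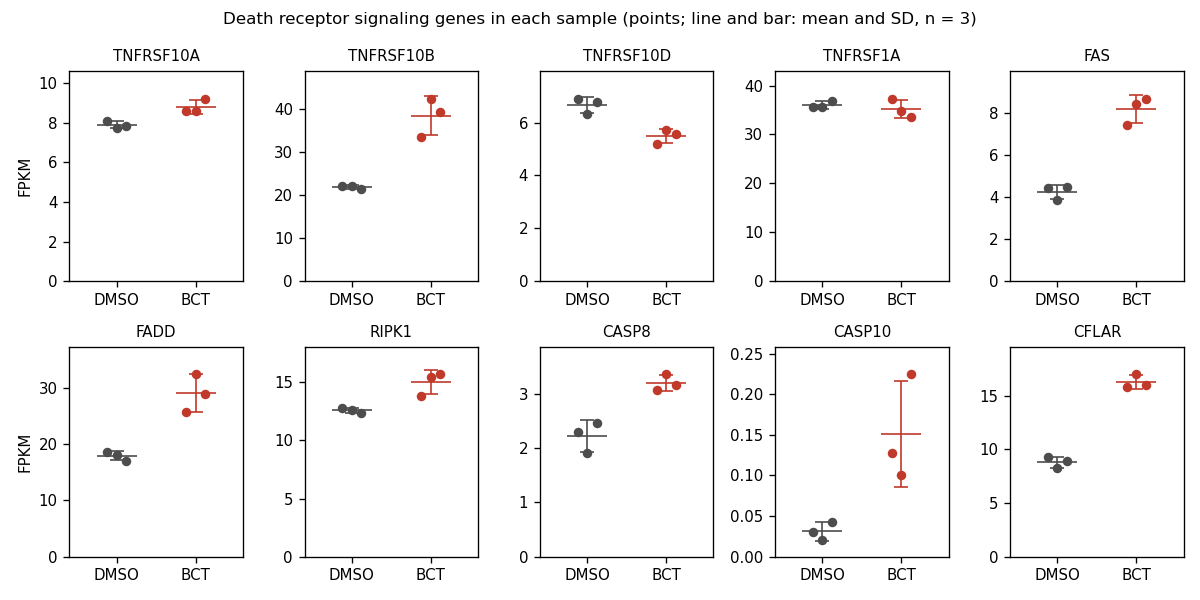
FPKM (vertical axes, each from 0) of the 10 genes in the 3 DMSO and 3 BCT samples, as points with the mean (line) and SD (bar). In FAS, CFLAR, TNFRSF10B and FADD the BCT points sit well above the DMSO points, TNFRSF10D is lower with BCT in these deposited values (not after rescaling to equal sums), and the TNFRSF1A points of both groups overlap.

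Among the receptors, TNFRSF10B (DR5), which binds TRAIL and signals through its death domain, stood at 22.1, 22.1 and 21.4 FPKM in DMSO replicates 1 to 3 and at 33.4, 42.3 and 39.3 FPKM in BCT replicates 1 to 3. Every BCT sample was above every DMSO sample, and BCT replicate 1 was the lowest of its group. The log2 fold change was 0.80 (standard error 0.084, adjusted p = 3.2e-05 by limma), a rise of 1.74 times that stayed just short of the 0.85 needed for a call. Without BCT replicate 1 it was 0.90 and was called, as it was with a GC and length correction at 0.88.

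FAS, the receptor for FAS ligand and a known p53 target, was at 4.41, 3.88 and 4.49 FPKM in the DMSO samples and 7.42, 8.41 and 8.69 FPKM in the BCT samples. The groups were clearly apart. The rise was 0.92 on the log2 scale (standard error 0.087, adjusted p = 1.7e-05 by limma), or 1.90 times, the largest of the 9 tested members. The deposited locus of FAS, on chromosome 10 from 90692441 to 90775542 of hg19 and on the plus strand, also holds ACTA2 on the other strand, and exons of ACTA2 cover 10.7% of the exon bases of FAS in GENCODE. ACTA2, smooth muscle actin, rose as well, from 3.91 ± 0.508 to 14.1 ± 0.925 FPKM (SD, n = 3 each). The library kit does not mark strand, so reads in the overlap cannot be told apart.

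TNFRSF10A (DR4), the other death domain receptor for TRAIL, was at 8.09, 7.74 and 7.86 FPKM in the DMSO samples and 8.59, 8.60 and 9.23 FPKM in the BCT samples. The groups did not overlap, but the gap was small, and the log2 fold change was 0.15 (standard error 0.058, adjusted p = 0.034 by limma). The pass did not hold with equal medians (adjusted p = 0.059 by limma) or when DMSO replicate 1, 2 or 3 or BCT replicate 2 or 3 was left out (0.057 to 0.12).

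TNFRSF10D (DcR2), a TRAIL receptor with a truncated death domain that acts as a decoy, was at 6.91, 6.33 and 6.79 FPKM in the DMSO samples and 5.19, 5.71 and 5.58 FPKM in the BCT samples. It was the one member in which every BCT sample lay below every DMSO sample. Its log2 fold change was -0.28 (standard error 0.068, adjusted p = 0.0049 by limma), and it turned to 0.48 after rescaling to equal FPKM sums and to 0.10 after rescaling without MIR6087.

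TNFRSF1A, the broadly expressed TNF receptor 1, is listed on the minus strand of chromosome 12 from 6437923 to 6451283 of hg19. It was the most abundant member with DMSO, at 35.6, 35.5 and 36.9 FPKM, and stood at 37.3, 34.7 and 33.6 FPKM with BCT. The groups overlapped. The 95% interval of its log2 fold change ran from -0.16 to 0.09 around -0.033 as deposited, and the sign turned under both rescalings of the sums (0.73 and 0.35), equal upper quartiles (0.01), quantile normalization (0.01) and a GC and length correction (0.12, adjusted p = 0.028 by limma).

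Rescaling samples to equal FPKM sums moved the center of all log2 fold changes, their median, to 0.72, and without MIR6087 to 0.34. Relative to that median, TNFRSF10D stayed between -0.32 and -0.19 and TNFRSF10B between 0.76 and 0.94 in all 22 settings, the deposited values included. In several of these settings the fold changes could not move, as only the filter, FDR, variance model, test or replicate block differed.

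The 3 TRAIL receptor genes lie close together on chromosome 8 of hg19, all on the minus strand. TNFRSF10B is listed from 22844930 to 22941132, TNFRSF10D from 22993101 to 23021543 and TNFRSF10A from 23048970 to 23082680. The deposited TNFRSF10B locus is wider than the GENCODE gene, which runs from 22877646 to 22926544. It is shared with LOC286059 and with RHOBTB2 on the other strand, whose exons cover 7.52% of those of TNFRSF10B. RHOBTB2 went the other way, from 10.2 ± 0.383 to 8.55 ± 0.740 FPKM (SD, n = 3 each). LOC286059 rose at a low level, from 0.00767 ± 0.00666 to 0.318 ± 0.167 FPKM (SD, n = 3 each). The fourth gene of the cluster, TNFRSF10C, which encodes a decoy without a death domain, was at 0.0413 ± 0.037 FPKM with DMSO and 0.123 ± 0.0487 FPKM with BCT and was not tested. Within one cluster the genes thus ranged from a level near 0 to that of TNFRSF10B and, as deposited, from a fall to a rise.

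FADD, the adaptor that links TRAIL receptors and FAS to caspase-8, was at 18.65, 18.1 and 17.0 FPKM in the DMSO samples and 25.8, 32.5 and 28.9 FPKM in the BCT samples. All BCT samples were higher, again with replicate 1 lowest. The log2 fold change was 0.69 (standard error 0.085, adjusted p = 8.8e-05 by limma), and a GC and length correction raised it to 0.88, which was called. FADD is listed on chromosome 11 from 70049269 to 70053508 of hg19, on the plus strand. RIPK1, the kinase that joins the TNF receptor 1 complex and can start necroptosis through RIPK3, was at 12.8, 12.6 and 12.4 FPKM in the DMSO samples and 13.9, 15.5 and 15.7 FPKM in the BCT samples. The groups did not overlap, and the log2 fold change was small at 0.25 (standard error 0.063, adjusted p = 0.0055 by limma). RIPK1 is listed on the plus strand of chromosome 6 from 3077058 to 3115421.

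CFLAR, CASP10 and CASP8 follow each other on the plus strand of chromosome 2 of hg19, and each encodes a protein with a pair of death effector domains. CFLAR is listed from 201980827 to 202037411, CASP10 from 202047604 to 202094129 and CASP8 from 202098166 to 202152434, with 10192 bases between the first pair and 4036 bases between the second. Their levels were far apart in both groups. The CFLAR locus is shared with the antisense gene CFLAR-AS1, which was at 0.231 FPKM or less in every sample.

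CFLAR was at 9.26, 8.22 and 8.90 FPKM in the DMSO samples and 15.8, 17.0 and 16.0 FPKM in the BCT samples. The BCT samples lay close together and clearly above the DMSO samples. The log2 fold change was 0.88 (standard error 0.064, adjusted p = 4.0e-06 by limma), a rise of 1.84 times. It dropped under 0.85 without DMSO replicate 2 (0.83) and without BCT replicate 2 (0.849), and a GC and length correction left 0.61, which was not called. The files give 1 value per gene, so the long and short forms of c-FLIP cannot be told apart.

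CASP8, the initiator caspase of these pathways, was low, at 2.31, 1.90 and 2.47 FPKM in the DMSO samples and 3.07, 3.37 and 3.16 FPKM in the BCT samples. The groups did not overlap, and the log2 fold change was 0.51 (standard error 0.11, adjusted p = 0.0028 by limma). CASP10, a close relative of CASP8, was at 0.03, 0.02 and 0.043 FPKM in the DMSO samples and 0.128, 0.101 and 0.225 FPKM in the BCT samples. Each BCT value was above each DMSO value at a level far below the other members. Without a filter on low values its log2 fold change was 0.91 and was called higher, a size that depends on the pseudocount of 0.1 FPKM.

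**Figure D2:**
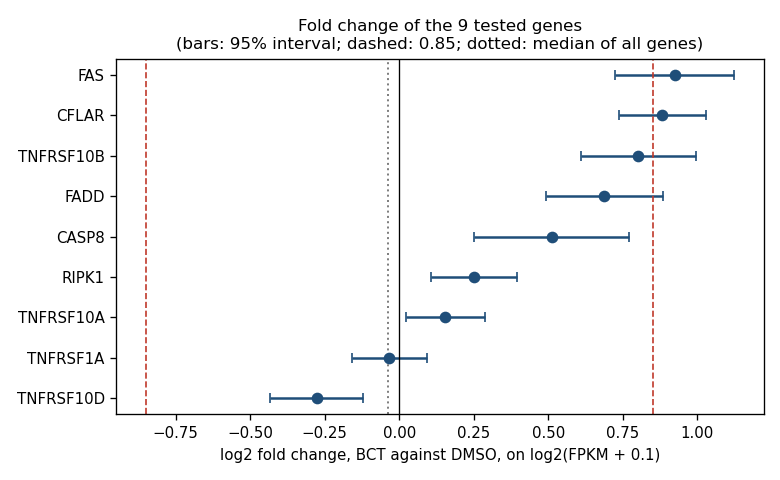
Log2 fold change (horizontal axis, BCT against DMSO on log2(FPKM + 0.1)) of the 9 tested genes, with 95% intervals as bars, dashed lines at 0.85 on either side and a dotted line at the median over the tested genes. The intervals of FAS, CFLAR, TNFRSF10B and FADD all include 0.85, from 0.92 for FAS to 0.69 for FADD.

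The 95% intervals of the log2 fold change were 0.72 to 1.12 for FAS, 0.74 to 1.03 for CFLAR, 0.61 to 0.99 for TNFRSF10B and 0.49 to 0.88 for FADD. All 4 include the threshold of 0.85, so the call for FAS and CFLAR does not set them apart from TNFRSF10B and FADD. With each sample left out in turn, 1 to 3 members were called higher, as were 1684 to 1932 of all 12729 tested genes. In 7 of the 8 members past the FDR, BCT replicate 1 was the BCT sample nearest to the DMSO mean, as it was in 75.2% of all 10450 genes past the FDR.

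FPKM is scaled by length, so levels can be set side by side, with limits. FAS and TNFRSF10B share their loci with genes on the other strand, and these levels were not corrected for GC content. With DMSO the order from high to low was TNFRSF1A, TNFRSF10B, FADD, RIPK1, CFLAR, TNFRSF10A, TNFRSF10D, FAS, CASP8 and CASP10, and no neighbors in that order overlapped. With BCT the order was TNFRSF10B, TNFRSF1A, FADD, CFLAR, RIPK1, TNFRSF10A, FAS, TNFRSF10D, CASP8 and CASP10. There, TNFRSF10B at 38.3 ± 4.53 FPKM and TNFRSF1A at 35.2 ± 1.93 FPKM overlapped (SD, n = 3 each), as did TNFRSF10A and FAS. CFLAR passed RIPK1 by a narrow gap, with a lowest CFLAR value of 15.8 and a highest RIPK1 value of 15.7 FPKM, and FAS passed TNFRSF10D.

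The balance between members was then compared as ratios of FPKM within each sample, which stay the same when all values of a sample are multiplied by one factor. For 6 pairs of tested genes, log2 ratios were compared by a two-sided exact permutation test, which with 3 against 3 samples cannot go below p = 0.1, so no pair could pass a threshold of 0.05. The ratio of TNFRSF10B to the decoy TNFRSF10D was 3.20, 3.49 and 3.14 with DMSO and 6.43, 7.41 and 7.05 with BCT. This was the largest shift, by 1.08 on the log2 scale, and the groups were far apart (exact permutation p = 0.1, 0.12 adjusted over the 6 pairs). The ratio of TNFRSF10B to TNFRSF10A went from 2.77 ± 0.0712 to 4.36 ± 0.524 (SD, n = 3 each), and that of FAS to TNFRSF1A from 0.118 ± 0.00787 to 0.233 ± 0.031.

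**Figure D3:**
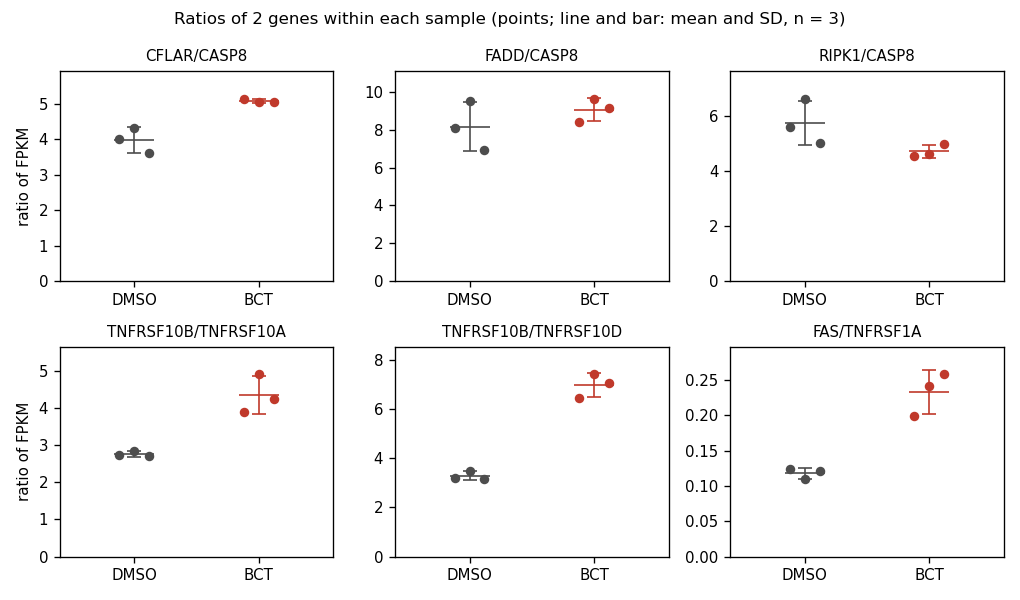
Ratio of the FPKM of 2 genes within each sample (vertical axes, each from 0) for the 3 DMSO and 3 BCT samples, as points with the mean (line) and SD (bar). The groups are apart for every pair but FADD to CASP8, with the widest gap for TNFRSF10B to TNFRSF10D.

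The ratio of CFLAR, the inhibitor, to CASP8, the caspase it restrains, was 4.02, 4.32 and 3.61 with DMSO and 5.15, 5.06 and 5.06 with BCT, a shift of 0.37 on the log2 scale with no overlap (exact permutation p = 0.1, 0.12 adjusted). A GC and length correction left a shift of 0.12, where the standard errors of the corrected log2 fold changes were 0.085 for CFLAR and 0.11 for CASP8. The ratio of RIPK1 to CASP8 went from 5.74 ± 0.81 to 4.70 ± 0.248 (SD, n = 3 each). For FADD to CASP8 the ratios overlapped, at 8.16 ± 1.30 and 9.06 ± 0.629 (exact permutation p = 0.3). The shift of 0.18 became 0.38 with the GC and length correction. With pseudocounts of 1 and 0.01 FPKM it was 0.28 and 0.16.

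The rest of the pathway was described with 6 lists of 70 genes written from general knowledge, of which 56 genes were tested, 11 called higher and 4 called lower, beside 13.9% and 17.8% of all tested genes. Without the 3 genes that had a mean under 1 FPKM in one group, 8 of 53 (15.1%) were called higher and 4 (7.55%) lower, and on the same terms 12.5% and 16.7% of all genes were. The lists were set with earlier results of these data known. Of 6 ligand genes, TNFSF15, the ligand of TNFRSF25, was the one with enough signal to be tested, and its mean went from 2.33 ± 0.17 FPKM with DMSO to 6.44 ± 0.275 FPKM with BCT (SD, n = 3 each), a rise of 1.43 on the log2 scale. The ligands of the members were all below the level for testing. FASLG was listed at 0 in all 6 samples, TNFSF10 (TRAIL) at means of 0.0257 and 0.0337 FPKM with DMSO and BCT, and TNF at 0.0237 and 0.137 FPKM. LTA (lymphotoxin alpha), which also binds TNF receptor 1, was at 0.0507 ± 0.0161 and 0.569 ± 0.282 FPKM (SD, n = 3 each), with every BCT value above every DMSO value.

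Among 11 further receptors and decoys, 7 were tested, with a median log2 fold change of 0.94. Of these, 4 were called higher and none lower by limma, beside 13.9% and 17.8% of all tested genes. At an unadjusted p under 0.05, 1 of them was lower, TNFRSF25 at -0.33. TNFRSF12A, the receptor for TWEAK, rose from 21.1 ± 0.628 to 281.3 ± 35.6 FPKM (SD, n = 3 each), by 3.72 on the log2 scale, where the highest value of a tested member was 0.92. NGFR, the low-affinity neurotrophin receptor with a death domain, was at 0.211 ± 0.103 and 2.06 ± 0.561 FPKM with DMSO and BCT, and TNFRSF11B (osteoprotegerin), a soluble decoy that can bind TRAIL, at 0.994 ± 0.0864 and 5.06 ± 0.736 FPKM. Both reached the mean of 1 FPKM through the BCT samples alone, where they are high, so their calls follow in part from the filter. Without them, 2 of 5 receptors were called higher, beside 12.5% of all genes on the same terms, and the median was 0.29. EDA2R, a receptor for ectodysplasin and a p53 target, had a log2 fold change of 0.94.

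The TNF receptor complex list holds adaptors, ubiquitin ligases and kinases that act with RIPK1. Of its 26 genes 24 were tested, with a median log2 change of 0.16. Of these, 3 were called higher and 2 lower, beside 13.9% and 17.8% of all tested genes. The ubiquitin ligase BIRC2 (1.05), which modifies RIPK1, and TAB2 (0.87), an adaptor of the kinase TAK1, rose. BIRC3 (2.74), a relative of BIRC2, was at 0.379 ± 0.0569 and 3.15 ± 0.761 FPKM with DMSO and BCT and entered the test through the BCT samples alone. Without BIRC3, 2 of 23 genes were called higher and 2 lower, beside 12.5% and 16.7% of all genes on the same terms. The median was then 0.087. TRAF5 (-1.05), an adaptor, and TRADD (-1.04), which brings RIPK1 and FADD to TNF receptor 1, fell. TRADD went from 13.1 ± 0.286 to 6.42 ± 1.22 FPKM (SD, n = 3 each) while FADD rose. TNFAIP3 (A20), which edits ubiquitin chains on RIPK1, was below the level for testing at 0.225 ± 0.0135 and 1.49 ± 0.195 FPKM with DMSO and BCT.

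The list of modulators of caspase-8 activation is a loose one, and a role of each of its genes, PIDD1 and CRADD among them, in that step was not tested. Of its 12 genes, all tested, DEDD (0.86), a protein with a death effector domain, was called higher, beside 13.9% of all tested genes. None was called lower by limma, against 17.8% of all tested genes, with 1 lower (PIDD1 at -0.68) at an unadjusted p under 0.05. A further 9 passed the FDR with a higher level, as 39.3% of all tested genes did, among them PEA15 at 0.48, which binds FADD and caspase-8 through its death effector domain. The median was 0.42. Of 4 necroptosis genes, PGAM5 was tested and was not called at -0.72. RIPK3, the partner of RIPK1 in necroptosis, was at means of 0.08 and 0.0267 FPKM, and MLKL, which breaches the membrane, at 0.491 ± 0.0722 and 0.157 ± 0.0542 FPKM with DMSO and BCT (SD, n = 3 each).

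The 11 genes of the mitochondrial arm and the executioner caspases were all tested, with 2 called higher and 2 called lower (18.2% each, near the 13.9% and 17.8% of all tested genes), and their median log2 change was -0.31. BID, which carries the caspase-8 signal to mitochondria, fell from 3.11 ± 0.201 to 1.41 ± 0.265 FPKM (SD, n = 3 each), and APAF1, the core of the apoptosome, had a log2 fold change of -1.57. CASP9 (1.30), the caspase of the apoptosome, and BAK1 (1.22), a pore-forming protein of the mitochondrial membrane, rose.

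**Figure D4:**
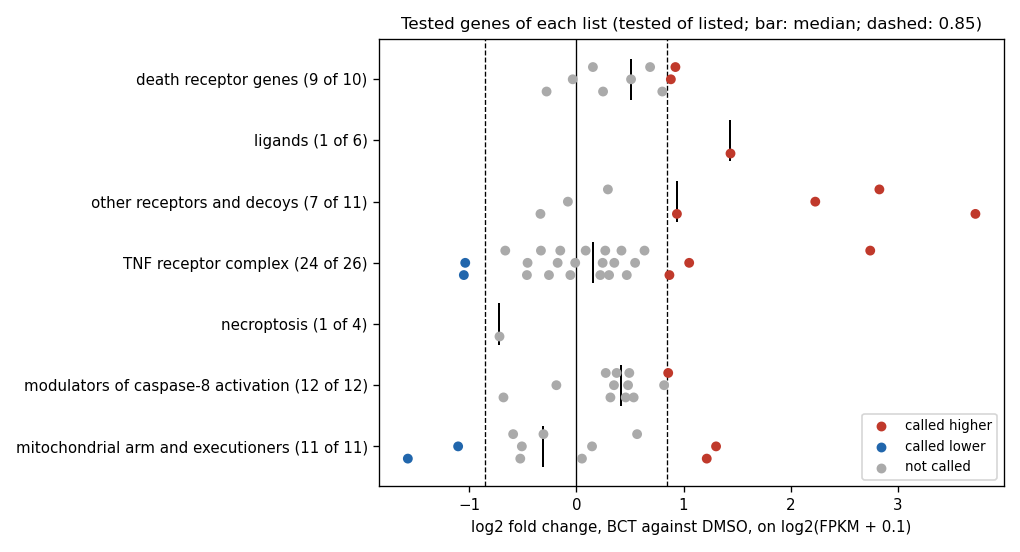
Log2 fold change (horizontal axis, BCT against DMSO) of each tested gene of the death receptor genes and of the 6 lists, with the median of each list as a bar, dashed lines at 0.85 on either side, and genes called higher in red, called lower in blue and not called in gray. The death receptor genes stay between -0.28 and 0.92, and the largest rise, 3.72, is that of TNFRSF12A among the other receptors.

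RefSeq windows of 300 bases around gene starts (GRCh38.p14, 250 bases before and 50 after) were found for 15 starts of 6 members, CFLAR, CASP8, RIPK1, FAS, FADD and TNFRSF1A. They were searched on both strands for 4 short motifs. TNFRSF10A, TNFRSF10B, TNFRSF10D and CASP10 had no window and were not searched. The NF-kB consensus was found in 5.9% of all 35116 windows and in 2 of the 15, at 1 start each of CFLAR and FAS. The AP-1 motif TGANTCA was in 7.7% of all windows and in 5 of the 15, at starts of CFLAR, FAS, FADD and, for 2 starts, CASP8. The GC box GGGCGG was in 45.0% of all windows and in 10 of the 15, and the cAMP response element TGACGTCA in 1.8% and in 0 of the 15. Some windows of one gene overlap, so they are not independent. A match is only a match of letters, and no binding was measured. The matched letters are in capitals, with up to 10 bases on either side, 5′ to 3′ on the plus strand, for the NF-kB and AP-1 matches, which lie at starts of 4 members. The GC box matches, at starts of CFLAR, CASP8, RIPK1, FAS and FADD, are not printed.
CFLAR NF-kB consensus, chr2:201118609-201118638: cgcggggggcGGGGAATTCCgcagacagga
FAS NF-kB consensus, chr10:88991264-88991293: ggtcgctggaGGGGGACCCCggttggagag
CFLAR AP-1 motif, chr2:201132611-201132637: atatggtcctTGAATCAacatcacctg
FAS AP-1 motif, chr10:88990548-88990572: caagttgcTGAATCAatggagccct
FADD AP-1 motif, chr11:70203307-70203333: tttcctgtagTGAATCAggcaccggag
CASP8 AP-1 motif, chr2:201258024-201258050: cttgttcgagTGAGTCAtctctgttct
CASP8 AP-1 motif, chr2:201260465-201260491: ctagtgtttgTGACTCAggagtttcga
The NF-kB match of CFLAR starts at position -97 from the gene start and overlaps a GC box that starts at -101, and that of FAS starts at -157. The AP-1 match of FADD lies after the gene start, at position 21.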

How the data were processed

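Total RNA of 22RV1 cells was sequenced by the authors as paired reads on an Illumina HiSeq. Per the labels the reads were trimmed with Trimmomatic 0.38 and aligned to hg19 with HISAT2. The study's methods name StringTie for assembly and FPKM calculation, whereas the labels list HTSeq. The gene annotation and the gene-level test are not given in the sources used here. The authors deposited FPKM values, 1 file per sample, for the same genes in the same order, and no 2 files were identical. No read counts were used, so no count test was run.

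Groups came from the agent in the labels. Fold changes on log2(FPKM + 0.1) were tested in R 4.3.3 by limma 3.58.1, whose eBayes step used a trend of variance on level, with the 3 BCT and 3 DMSO samples and no block. The fold change threshold and the FDR of 0.05 follow the study's results text, while its methods give 0.01. The members, lists and pairs were chosen with earlier results of these data known. Named genes were all members and, from each list, the called genes, at most 4 in each direction, and others singled out for their role after their values were seen. The planned pair of CASP10 and CASP8 was left out, as CASP10 was not tested. The fit was checked on simulated data with known changes. Positions are those of the files with 1 added to the start, and exon overlaps come from GENCODE on GRCh37. Alternatives covered pseudocount, filter, scaling, FDR, variance model, a test against the threshold, the replicate block and each sample left out. A rescaling without MIR6087 and a correction for GC content and length (loess, span 0.5) were added after seeing the data.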

Additional observations from a re-analysis of the deposited data

How the results depend on the processing

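Of 188 values of the log2 fold change of the 9 tested members under alternative settings, 162 kept both the direction and the call, 11 became called, 7 lost their call and 8 changed sign. The filter, FDR, variance model, test against the threshold and replicate block leave the fold change itself unchanged. In those settings the direction was thus fixed, and only the call could move. With a sample left out the direction was also fixed for every tested member but TNFRSF1A, whose groups alone overlapped. The 2 members called higher became 0 with a pseudocount of 1 FPKM (FAS 0.80, CFLAR 0.82) and in a test against the threshold, 7 after rescaling to equal sums, 5 after rescaling without MIR6087, and 1 to 3 with each sample left out. Of all 12729 tested genes, 1764 were called higher in the main fit. That number became 1402 with a pseudocount of 1 FPKM and 1033 in the test against the threshold. It was 5609 with equal sums, 3369 without MIR6087 and 1684 to 1932 with each sample left out. The GC and length correction called 3 members, FAS (0.887), TNFRSF10B (0.880) and FADD (0.879), and not CFLAR (0.615). It called 1808 of 12428 genes higher. The count of members called lower stayed at 0 in every setting, while 668 to 2771 of all tested genes were called lower. TNFRSF10D turned to 0.479 with equal sums and 0.103 without MIR6087. TNFRSF1A turned to 0.733 and 0.352 under these, to 0.0103 with equal upper quartiles, 0.0126 with quantile normalization, 0.115 with the GC and length correction and from -0.076 without BCT replicate 1 to 0.00021 without BCT replicate 3.

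Over all genes, 4027 were called (1764 higher, 2263 lower). This became 6277 with equal sums (5609 higher, 668 lower) and 2425 in the test against the threshold (1033 higher, 1392 lower). The higher genes numbered 2657 without a filter, 1150 at a mean of at least 5 FPKM and 3369 without MIR6087, where 1208 were lower. Why the sums differ between the groups, with or without MIR6087, was not tested, nor was which scaling is right.

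Both groups carry the replicate numbers 1 to 3. Deviations of same-numbered samples correlated at 0.116, 0.0328 and 0.0342, so the numbers were not taken to pair the samples, and not every sample correlated best with its own number. The fit with a replicate block called 1767 genes higher and 2266 lower, and among the members FAS and CFLAR. With the block TNFRSF10A no longer passed the FDR (adjusted p = 0.068 by limma), and over 21 settings tested against no change it passed in 13. The 6 ratios kept their direction in all 54 values under other pseudocounts, the GC and length correction or with a sample left out. For every pair but FADD to CASP8 the groups were apart, so leaving out a sample could not turn the direction. Each group has 3 samples, and FPKM without counts gives no counting error for weak genes such as CASP10.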
